A study of Mus musculus with 4 samples.

Results

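The 40 protein-coding genes of the voltage-gated sodium and calcium channels were compared between WT and *Lsd1* KI mice in RNA of the hippocampus. The genes were chosen by symbol: Scn followed by a digit (14 genes), and Cacna1, Cacna2d, Cacnb or Cacng (the calcium channel subunits and their relatives), matched by Ensembl identifier in the mouse GRCm38 annotation. All 40 were among the 26328 genes listed in at least 1 sample, and 32 of them were among the 18436 genes tested, each of which reached 0.5 RPKM in no fewer than 2 libraries. RPKM divides the reads of a gene by its exon length and by the mapped reads of the library, so levels of different genes can be compared per length. The KI mice carry the SA allele of *Lsd1* on both copies, which puts alanine in place of the serine of LSD1 that PKCα phosphorylates, and the controls were wild-type littermates. Both groups were male C57BL/6 mice with no treatment named, at 2 hippocampal poly(A) RNA libraries each (WT replicates 1 and 2, KI replicates 1 and 2). The age of 8 to 15 weeks in the labels is that of the mice used for behaviour. Since the labels do not say that the replicates came from separate animals, p-values here measure the spread between these libraries, which may be technical.

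Voltage-gated sodium channels open on depolarization and carry the rising phase of the action potential. Their α subunits form the pore, and β subunits tune gating and surface expression. Voltage-gated calcium channels turn the same depolarization into calcium entry, which triggers transmitter release at the presynaptic terminal and drives calcium signalling in dendrites and soma. Their α1 subunits form the pore, α2δ and β subunits carry the channel to the membrane and shape its gating, and most members of the γ family are TARPs, which traffic AMPA receptors to the synapse and slow their closing. In the hippocampus these genes set the excitability of the principal cells and interneurons and the release probability of their terminals.

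Sequencing depth, worked out from the whole-read steps in the RPKM values, ran from 8820000 mapped reads in WT replicate 2 to 14940000 in KI replicate 2. *Kdm1a*, which encodes LSD1, had 11.6 and 11.2 RPKM in WT while KI had 10.97 and 11.2 RPKM. The knock-in changes a codon, so this level does not check the genotype. *Kdm1a* lies on chromosome 4, where 0 of the 40 channel genes lie. Markers of hippocampal cells were present in each library: *Prox1* of dentate granule cells at 10.2 to 17.3 RPKM, and *Fibcd1* of CA1 pyramidal cells at 33.5 to 34.9 RPKM.

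Among the channel genes described here, mean levels over all samples ran from 0.0148 RPKM for *Scn11a* to 76.9 RPKM for *Cacng8*. After *Cacng8* came *Scn2b*, *Cacnb3*, *Scn3b* and *Cacng7*, each with a mean between 61.3 and 67.1 RPKM. The sample ranges of *Scn2b* and *Cacnb3* overlapped, as did those of *Cacnb3* and *Scn3b* and those of *Scn3b* and *Cacng7*. At the other end, 8 genes were below the level tested: *Cacna2d4*, *Scn7a*, *Cacna1f*, *Cacna1s*, *Cacng1*, *Scn4a*, *Scn10a* and *Scn11a*. Several of these are known from retina, skeletal muscle or sensory neurons rather than from brain.

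**Figure D1:**
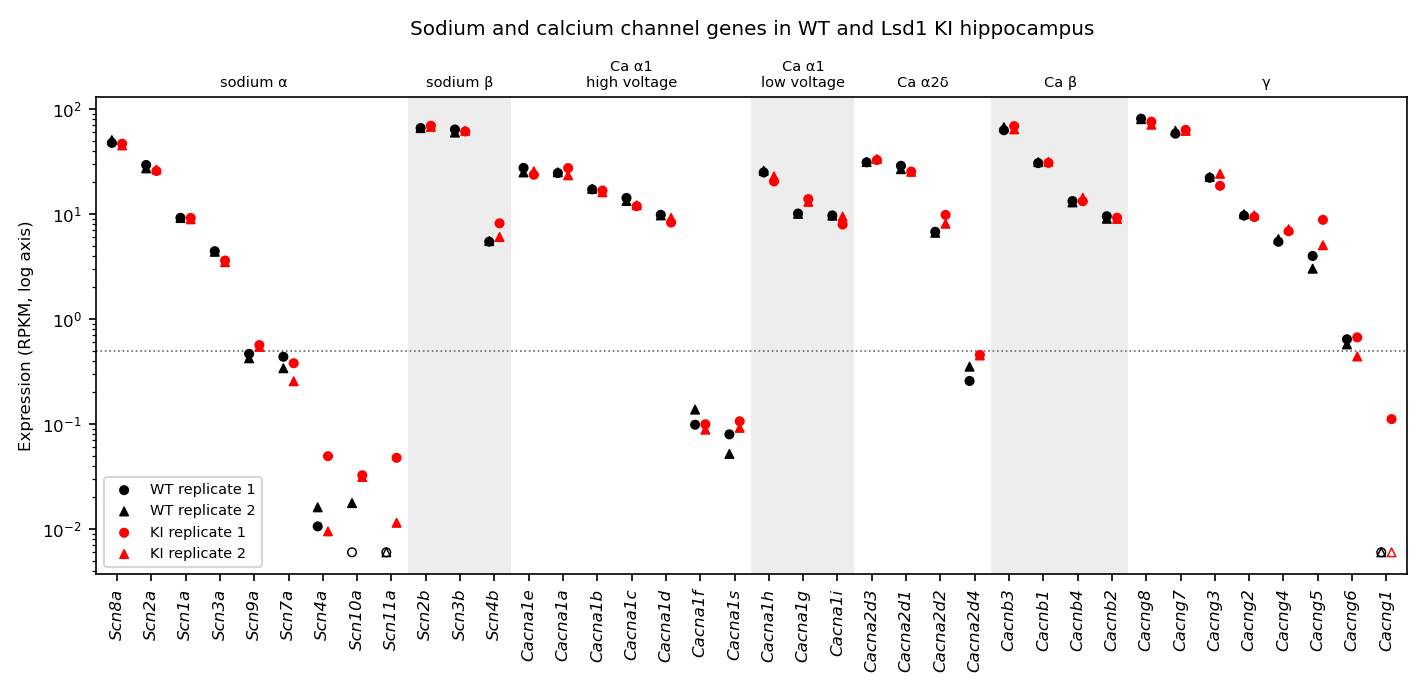
Expression of 38 channel genes in each library, in RPKM on a log axis, by subunit family (WT black, KI red, circles replicate 1, triangles replicate 2). The dotted line is the 0.5 RPKM of the test filter, and open symbols at the bottom stand for a value of 0. Above the dotted line, WT and KI symbols lie on top of each other for most genes, while *Cacng5* stands apart, with KI replicate 1 highest. Well below the line, symbols of genes with very few reads, such as *Scn4a* and *Scn11a*, also lie apart.

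Compared with WT, 0 of the 32 tested channel genes met the threshold, which asked for both a 1.2-fold change and an adjusted p below 0.1 (limma on log2(RPKM + 1), Benjamini-Hochberg over all tested genes). The background was also 0% of the 18436 genes, and the smallest adjusted p among the channel genes was 0.307, for *Cacna1g*. Before adjustment, 4 channel genes were higher in KI at a limma p under 0.05 (*Cacna1g*, *Cacng4*, *Cacna2d2* and *Cacng5*), or 12.5% against a background of 6.30%. Another 3 were lower (*Scn3a*, *Cacna1h* and *Cacna1c*), or 9.38% against 3.33%. These counts rest on 2 libraries a group, and both were smaller in some fits with 1 library left out. As each library was left out, the log2 fold change of *Cacng5* ran from 0.43 to 1.13 and that of *Cacna1g* from 0.34 to 0.43. That of *Cacna1h* ran from -0.30 to -0.15 and that of *Scn3a* from -0.27 to -0.23. The median log2 fold change of the 32 genes was -0.01, beside 0.01 over all tested genes. On the log2(RPKM + 1) scale, the added 1 shrinks the fold change of a weakly expressed gene.

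In 10 of the 32 genes the lower KI value exceeded the higher WT value (31.2%), as it did in 24.0% of all tested genes. The KI values were both under the WT values in 10 genes (31.2%), against 18.1% of all tested genes. With quantile normalization these counts were 9 above and 12 below, and the background 19.2% above and 22.9% below. With each sample centred on its median ratio they were 10 and 12, and the background 21.12% and 21.02%. With the ratio of mean RPKM also at 1.2 or more, 7 genes were higher in KI (21.9%, background 10.3%) and *Scn3a* was lower (3.12%, background 5.32%). Of those 7, 2 genes, *Scn9a* among them, entered the test only because their KI values reached 0.5 RPKM, so they had to be higher in KI, and 5 remain without them. With 2 libraries against 2, an exact permutation test of a single gene cannot give a p below 0.333.

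Differences of this size were found mostly among the weakly expressed members. Of the 19 tested genes with a mean of 10 RPKM or more, 18 had a KI to WT ratio within 1.2-fold, with *Cacna1g* the exception. Of the 13 tested genes below that level, 6 did. The summed RPKM of all 40 genes was 961 and 970 in WT, and 982 and 972 in KI, so the groups lay close together in their total.

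**Figure D2:**
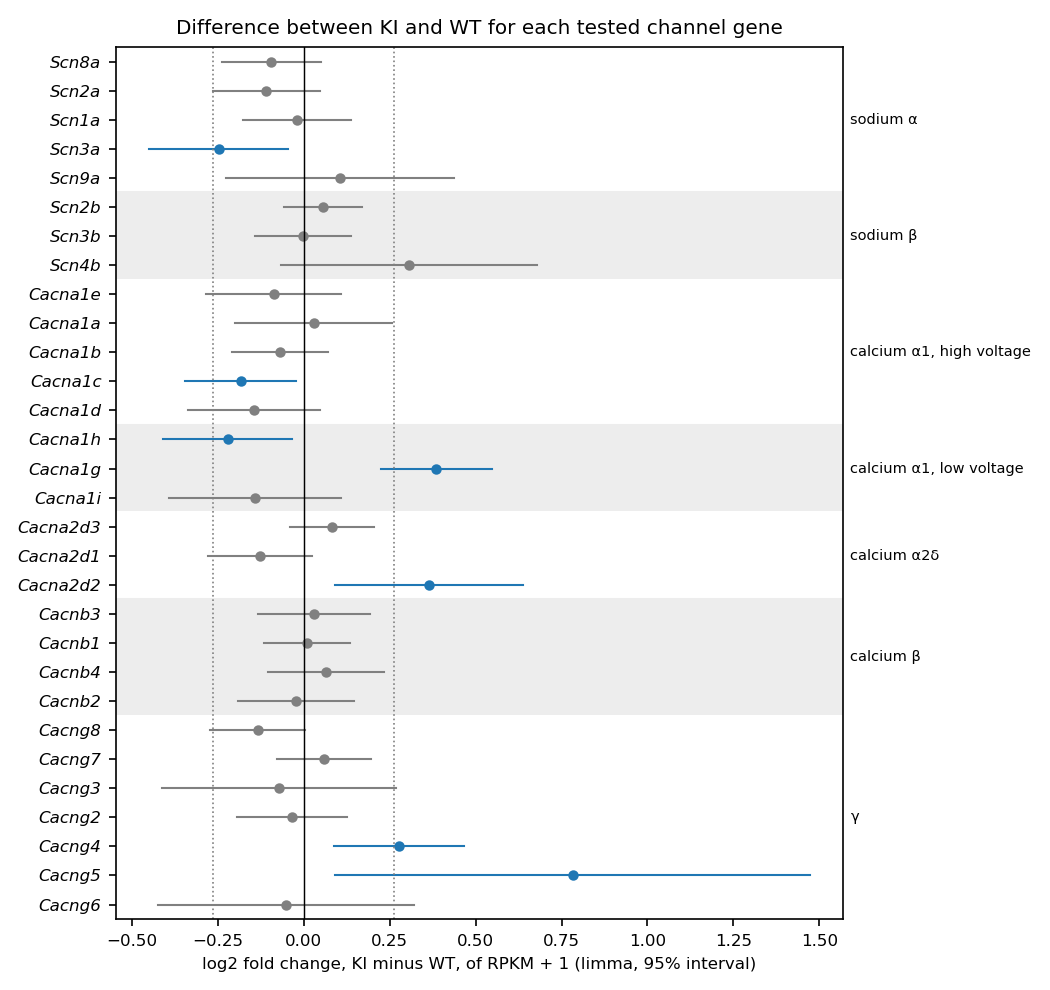
Log2 fold change (KI minus WT, on RPKM + 1) of 30 tested channel genes with its 95% interval from limma, by subunit family. Blue marks an unadjusted limma p under 0.05, dotted lines mark 1.2-fold, and none of these genes passed the adjusted threshold.

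The sodium channel α subunits of hippocampal neurons were mostly near their WT level, with a family sum of 91.8 and 92.5 RPKM in WT and 87.4 and 85.3 RPKM in KI. *Scn8a*, the main α subunit of mature axon initial segments and nodes, was the highest, at 47.5 and 50.5 RPKM in WT and 46.7 and 45.0 RPKM in KI. *Scn2a*, found in unmyelinated axons and early initial segments, was at 29.3 and 27.2 RPKM in WT and at 25.7 and 26.5 RPKM in KI. In both genes the KI values lay just below the WT values. The intervals of the log2 fold change, -0.24 to 0.05 for *Scn8a* and -0.26 to 0.05 for *Scn2a*, included 0. *Scn1a*, which serves fast-spiking interneurons, was at 9.20 and 9.15 RPKM in WT and 9.18 and 8.90 RPKM in KI, and its groups overlapped.

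*Scn3a* (ENSMUSG00000057182, chromosome 2, 65457118 to 65567627 in GRCm38), the α subunit that prevails before birth, was the only member that was lower in both KI samples by at least 1.2-fold. Its values were 4.42 and 4.36 RPKM in WT and 3.61 and 3.48 RPKM in KI. The gap between the groups was wider than the gap within either group. The log2 fold change was -0.25 (standard error 0.08), with an adjusted p of 0.487 from limma, and it stayed between -0.27 and -0.23 as each library was left out. *Scn3a* lies in the sodium channel cluster of chromosome 2 with *Scn2a*, *Scn1a*, *Scn9a* and *Scn7a*.

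*Scn9a*, best known from pain-sensing neurons, was at 0.466 and 0.423 RPKM in WT and 0.564 and 0.543 RPKM in KI, on 48 to 104 reads. Both KI values were above both WT values, and the ratio of means was 1.25, with an adjusted p of 0.825 from limma. The glial and sensory channel gene *Scn7a*, below the tested level, was at 0.437 and 0.340 RPKM in WT and 0.379 and 0.255 RPKM in KI.

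Muscle and sensory α subunits were at the limit of detection. *Scn4a* rested on 1 read in each WT sample and on 5 and 1 reads in the KI samples. *Scn10a* was listed at 0.0177 RPKM in WT replicate 2 and at 0.0325 and 0.0313 RPKM in KI, and at 0 in WT replicate 1. *Scn11a* was at 0 in both WT samples, and at 0.0477 and 0.0115 RPKM in KI, on about 4 and 1 reads. At so few reads no difference between the groups was detectable.

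Of the sodium channel β subunits, which also act as cell adhesion molecules, *Scn2b* and *Scn4b* were higher in both KI samples and *Scn3b* overlapped. *Scn2b* was at 65.8 RPKM in both WT samples and at 69.2 and 67.6 RPKM in KI, a ratio of 1.04. *Scn3b* was at 63.8 and 59.6 RPKM in WT and at 61.2 and 62.0 RPKM in KI.

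*Scn4b* (ENSMUSG00000046480, chromosome 9, 45138395 to 45154152), whose product takes part in resurgent sodium current, lies on the plus strand, as does *Scn2b* on the same chromosome. It was at 5.45 and 5.53 RPKM in WT, at 8.15 RPKM in KI replicate 1 and at 6.04 RPKM in KI replicate 2. The WT samples were nearly equal, and KI replicate 1 stood well above the other 3 samples. The log2 fold change was 0.31 (interval -0.07 to 0.68, adjusted p = 0.561 from limma), and it was 0.12 without KI replicate 1 and 0.50 without KI replicate 2.

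Pore-forming subunits of the high-voltage-activated calcium channels included 5 tested genes, with both KI values above WT in 0 and below WT in 3 (24.0% and 18.1% of all tested genes). None of the 5 passed the adjusted threshold. Their family summed to 93.4 and 90.4 RPKM in WT and 88.1 and 86.4 RPKM in KI. *Cacna1a*, the P/Q-type channel of most central presynaptic terminals, was at 24.5 and 24.97 RPKM in WT and at 27.4 and 23.3 RPKM in KI. The KI samples lay on either side of WT. *Cacna1b*, the N-type channel that shares this presynaptic role, was at 17.1 and 17.4 RPKM in WT and at 16.7 and 16.1 RPKM in KI, a ratio of 0.95 (limma adjusted p = 0.714). *Cacna1e*, the R-type channel of dendrites and terminals, was at 27.5 and 24.9 RPKM in WT and 23.6 and 25.5 RPKM in KI, and overlapped. *Cacna1e* and *Cacna1a* had the highest means of the family, and their ranges overlapped each other.

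The L-type genes of neurons, *Cacna1c* and *Cacna1d*, couple depolarization to transcription and to slow after-potentials. *Cacna1c* (ENSMUSG00000051331, chromosome 6, 118587240 to 119196418) was at 14.2 and 13.3 RPKM in WT and at 11.9 and 12.1 RPKM in KI, a ratio of 0.87. The log2 fold change was -0.18 ± 0.06 (SE), at an adjusted p of 0.490 in limma. *Cacna1d* was at 9.82 and 9.70 RPKM in WT and at 8.29 and 9.18 RPKM in KI, a ratio of 0.90, with KI replicate 1 the lower. The retinal gene *Cacna1f* rested on 11 to 13 reads in each library and the skeletal muscle gene *Cacna1s* on 7, 3, 10 and 9 reads in WT replicates 1 and 2 and KI replicates 1 and 2. *Cacna1s* was at 0.0797 and 0.0519 RPKM in WT and 0.106 and 0.0919 RPKM in KI.

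The low-voltage-activated, or T-type, family showed its members on opposite sides of WT. T-type channels open near the resting potential and support burst firing. *Cacna1g* (ENSMUSG00000020866, chromosome 11, 94408391 to 94474198) was at 10.1 and 10.03 RPKM in WT and at 13.9 and 13.0 RPKM in KI (10.1 ± 0.0437 and 13.5 ± 0.588 RPKM, SD, n = 2 each). The 2 WT values were nearly equal, and both KI values were above them, on 897 to 2023 reads a library. The log2 fold change was 0.39 ± 0.06 (SE, interval 0.22 to 0.55), at an adjusted p of 0.307 in limma, and ran from 0.34 to 0.43 as each library was left out.

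*Cacna1h* (ENSMUSG00000024112, chromosome 17, 25374285 to 25433783) was the highest T-type gene and lay lower in KI, at 20.4 and 22.8 RPKM against 24.9 and 25.8 RPKM in WT. Limma gave a log2 fold change of -0.22 ± 0.07 (SE) and an adjusted p of 0.490, and the log2 fold change ran from -0.30 to -0.15 as each library was left out. *Cacna1i* was at 9.68 and 9.64 RPKM in WT and at 7.93 and 9.46 RPKM in KI, both below WT, though KI replicate 2 only slightly. Summed over the family, T-type expression was 44.7 and 45.5 RPKM in WT and 42.2 and 45.3 RPKM in KI. Within that sum, the share of *Cacna1g* was 22.6% and 22.1% in WT and 32.9% and 28.8% in KI, while that of *Cacna1h* was 55.7% and 56.8% in WT and 48.4% and 50.3% in KI. The shares of both genes did not overlap between the groups, while the totals did. These shares are a description with no test, of genes that did not pass the adjusted threshold.

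**Figure D3:**
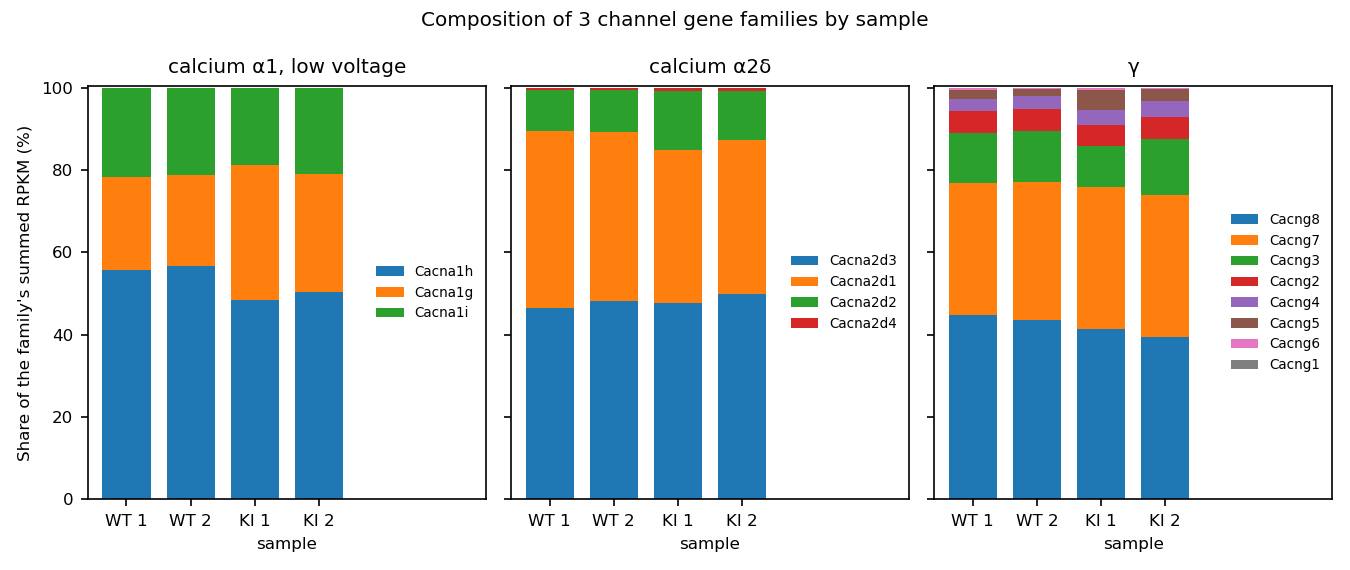
Share of each gene in the summed RPKM of its family, in percent, for the T-type calcium channel, α2δ and γ families in the 4 libraries. The *Cacna1g* band is 22.6% and 22.1% of the T-type sum in WT and 32.9% and 28.8% in KI, and the *Cacna2d2* and *Cacng5* bands are also wider in KI.

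Among the α2δ subunits, which include the targets of the gabapentinoid drugs, *Cacna2d3* was the highest, at 31.0 and 31.3 RPKM in WT and 32.6 and 33.4 RPKM in KI. *Cacna2d1* was at 28.8 and 26.7 RPKM in WT and at 25.4 and 25.2 RPKM in KI, a ratio of 0.91. *Cacna2d2* (ENSMUSG00000010066, chromosome 9, 107399612 to 107529343) was at 6.77 and 6.62 RPKM in WT, at 9.81 RPKM in KI replicate 1 and at 8.08 RPKM in KI replicate 2. Here both KI samples stood above WT, and KI replicate 1 was the higher. Limma gave a log2 fold change of 0.36 ± 0.10 (SE) and an adjusted p of 0.468, and it was 0.24 without KI replicate 1 and 0.49 without KI replicate 2. *Cacna2d4*, a photoreceptor form, was at 0.257 and 0.351 RPKM in WT and 0.455 and 0.450 RPKM in KI, on 29 to 64 reads, and was below the tested level.

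The 4 cytoplasmic β subunit genes, which bring α1 subunits to the membrane, lay near their WT levels. In all 4 the KI and WT values overlapped, and the ratios of mean RPKM ran from 0.98 to 1.05. *Cacnb3* was at 62.8 and 67.1 RPKM in WT and 68.7 and 64.0 RPKM in KI, and *Cacnb1* at 30.5 and 31.2 RPKM in WT and 30.7 and 31.4 RPKM in KI. For *Cacnb1* the interval of the log2 fold change was -0.12 to 0.13, and for *Cacnb3* it was -0.13 to 0.19. *Cacnb4* (13.1 RPKM in WT, 13.7 RPKM in KI) was close to even, and shares 16.0% of its exon bases with a gene on the opposite strand, and no strand setting of the counting is known here. *Cacnb2*, the least abundant, was at 9.52 and 9.01 RPKM in WT and 9.21 and 8.98 RPKM in KI.

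In the γ family, *Cacng8* was lower and *Cacng4* and *Cacng5* were higher in both KI samples, and the others overlapped. *Cacng8*, the TARP typical of hippocampal pyramidal cells, was at 80.9 and 80.0 RPKM in WT and at 75.8 and 70.8 RPKM in KI, a ratio of 0.91 (limma adjusted p = 0.518). *Cacng7* was at 58.2 and 61.9 RPKM in WT and 63.3 and 61.9 RPKM in KI. *Cacng3* differed mainly between the KI samples, at 18.6 and 24.1 RPKM, with WT at 22.1 and 22.5 RPKM. *Cacng2*, or stargazin, was at 9.65 and 9.95 RPKM in WT and 9.36 and 9.72 RPKM in KI. The summed RPKM of the 6 TARP genes overlapped between the groups, at 180 and 183 in WT and 183 and 179 in KI.

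*Cacng4* and *Cacng5* lie on the minus strand of chromosome 11, as does the muscle gene *Cacng1*. *Cacng4* (ENSMUSG00000020723, 107732357 to 107794557) was at 5.44 and 5.77 RPKM in WT and at 6.85 and 7.17 RPKM in KI. The groups were clearly apart and the samples within each were close. Limma gave a log2 fold change of 0.28 ± 0.07 (SE) and an adjusted p of 0.435. *Cacng5* (ENSMUSG00000040373, 107874605 to 107915055) was at 3.99 and 3.01 RPKM in WT, at 8.80 RPKM in KI replicate 1 and at 5.04 RPKM in KI replicate 2, on about 205, 102, 485 and 289 reads. Both KI samples were above WT, with KI replicate 1 far above the others, and the ratio of means was 1.98. The log2 fold change was 0.78 (interval 0.09 to 1.47, adjusted p = 0.490 from limma), and ran from 0.43 without KI replicate 1 to 1.13 without KI replicate 2. *Cacng1* was at 0 in 3 libraries and rested on 2 reads in KI replicate 1, and *Cacng6* was at 0.440 to 0.668 RPKM with overlapping groups.

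Promoter windows are shown for the 3 members above 1 RPKM that have RefSeq windows and were higher in both KI samples by at least 1.2-fold. They run from 250 bases before to 50 after the start (GRCm38.p6, 5′ to 3′ on the strand of the gene). Capitals mark matches, on either strand, to the GC box GGGCGG or to GGACAG, the right-hand part of the REST element RE1. *Cacna2d2* is on the plus strand at chr9:107399630-107399929, *Scn4b* on the plus strand at chr9:45138374-45138673, and *Cacng5*, for the first of its 2 windows, on the minus strand at chr11:107915006-107915305.
Cacna2d2: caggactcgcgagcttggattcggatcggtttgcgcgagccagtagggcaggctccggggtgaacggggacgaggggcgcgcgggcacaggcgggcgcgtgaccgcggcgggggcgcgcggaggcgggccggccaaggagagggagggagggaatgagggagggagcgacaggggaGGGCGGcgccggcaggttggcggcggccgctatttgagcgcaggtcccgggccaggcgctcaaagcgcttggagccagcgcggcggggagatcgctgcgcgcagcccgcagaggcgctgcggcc
Scn4b: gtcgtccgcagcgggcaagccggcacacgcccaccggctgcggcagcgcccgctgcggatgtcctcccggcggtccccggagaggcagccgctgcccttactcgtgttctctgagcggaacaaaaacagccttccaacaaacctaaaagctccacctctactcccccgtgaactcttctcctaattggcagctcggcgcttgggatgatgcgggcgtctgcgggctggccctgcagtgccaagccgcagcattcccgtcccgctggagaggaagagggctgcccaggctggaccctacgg
Cacng5: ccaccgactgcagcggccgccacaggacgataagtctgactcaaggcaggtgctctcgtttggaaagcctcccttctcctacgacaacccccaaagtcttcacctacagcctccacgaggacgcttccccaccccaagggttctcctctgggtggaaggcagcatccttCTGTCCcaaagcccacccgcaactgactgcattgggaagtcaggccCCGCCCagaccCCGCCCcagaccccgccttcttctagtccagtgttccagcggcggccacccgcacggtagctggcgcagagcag
Windows were found for 30 of the 40 channel genes, 41 windows in all, and not for *Cacna1g*, *Cacng4* or *Scn3a*. The printed windows of *Cacna2d2*, *Scn4b* and *Cacng5* hold 43, 26 and 17 CpG dinucleotides. The other *Cacng5* window, not printed, holds 5. The median was 9 over the channel gene windows and 7 over 32851 mouse windows. Of the members higher in both KI samples by a smaller ratio, *Cacna2d3* has 41 CpG dinucleotides in its window and *Scn2b* has 2. A GC box was in 16 of the 41 channel windows and in 35.7% of all windows, and GGACAG in 7 of the 41 and in 22.2% of all windows. The E-box CACGTG was in 0 of the 41 and in 7.15% of all windows. The left-hand part of RE1, TTCAGCACC, was in 0 of the 41 and in 0.371% of all windows. A match of such short letters is a description of the window and not a binding site.

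Genes of proteins that work with these channels were examined as lists. Of the 10 sodium channel partners, which anchor channels at the initial segment or bind their tails, 0 passed the adjusted threshold, 5 were lower and 1 was higher in both KI samples, where 18.1% and 24.0% of all tested genes were. *Ank3*, the ankyrin that holds sodium channels at the initial segment, was at 17.4 and 17.6 RPKM in WT and 16.3 and 16.4 RPKM in KI. None of the 10 had a limma p under 0.05 before adjustment. Of the 13 tested calcium channel partners, 0 passed, while both KI values exceeded WT in 5 and were under WT in 1 (24.0% and 18.1% of all tested genes).

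*Stac2*, an adaptor that binds L-type channels, was the tested partner with the largest log2 fold change in either direction, at 25.6 and 24.8 RPKM in WT and 41.0 and 34.4 RPKM in KI. Its log2 fold change was 0.56 (limma adjusted p = 0.318). *Cabp1*, a calcium sensor that binds calcium channels, was at 24.3 and 25.9 RPKM in WT and 33.5 and 26.97 RPKM in KI, with KI replicate 1 well above the rest. *Rims1*, which tethers calcium channels at the active zone, was at 31.5 and 32.3 RPKM in WT and 29.7 and 28.2 RPKM in KI, while its paralogue *Rims2* was at 11.5 RPKM in both WT samples and at 11.7 and 11.6 RPKM in KI. Of the RGK genes, inhibitors of calcium channels, *Rem2* was at 5.86 and 6.04 RPKM in WT and 7.82 and 6.36 RPKM in KI. Another of them, *Rem1*, was below the tested level at 0.173 and 0.210 RPKM in WT and 0.387 and 0.403 RPKM in KI. The other RGK genes overlapped between the groups, with *Gem* at 1.03 and 0.969 RPKM in WT and 0.991 and 0.827 RPKM in KI, and *Rrad* at 0.805 and 0.216 RPKM in WT and 0.839 and 0.764 RPKM in KI. Of the 10 TARP partners, 0 passed, while both KI values exceeded WT in 3 and were under WT in 3 (24.0% and 18.1% of all tested genes). The AMPA receptor subunit gene *Gria3* was at 25.6 and 25.1 RPKM in WT and 22.2 and 23.4 RPKM in KI, and *Shisa7*, an AMPA receptor auxiliary gene, at 55.1 and 52.7 RPKM in WT and 59.3 and 59.1 RPKM in KI.

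Marker genes of cell types and neighbouring regions also differed between the groups, with 0 of them past the adjusted threshold, and in bulk RNA fewer cells of a type cannot be told apart from less RNA per cell. In the counts that follow, higher or lower means in both KI samples, as for 24.0% and 18.1% of all tested genes. All 5 dentate granule cell markers were found, 4 of them lower in both KI samples, and their summed level was 95.6 and 94.8 RPKM in WT and 62.9 and 79.3 RPKM in KI. None of the 6 neocortex markers was lower in both KI samples and 4 were higher, with a sum of 49.0 and 51.9 RPKM in WT and 57.0 and 55.3 RPKM in KI. Thalamus markers summed to 29.9 and 30.4 RPKM in WT and 36.4 and 32.9 RPKM in KI (3 of 8 tested higher, 1 lower). The defining thalamus gene *Tcf7l2*, below the tested level, lay the other way, at 0.418 and 0.454 RPKM in WT and 0.350 and 0.375 RPKM in KI. Striatum markers summed to 30.3 and 29.0 RPKM in WT and 34.3 and 33.2 RPKM in KI (4 of 8 higher, 2 lower). CA2 markers summed to 217 and 212 RPKM in WT and 231 and 246 RPKM in KI (4 of 6 higher, 2 lower).

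Interneuron markers overlapped in their sum, at 359 and 366 RPKM in WT and 363 and 342 RPKM in KI (3 of 8 higher, 1 lower). Most of that sum was *Sst*, the marker that was lower, at 243 and 254 RPKM in WT and 233 and 226 RPKM in KI. The 3 higher markers were *Pvalb* (15.5 and 16.0 RPKM in WT, 21.2 and 19.1 RPKM in KI), *Vip* (8.49 and 8.23 RPKM, then 11.5 and 9.59 RPKM) and *Slc32a1* (22.3 and 22.03 RPKM, then 24.96 and 23.9 RPKM). Choroid plexus markers summed to 13.4 and 19.5 RPKM in WT and 59.1 and 16.2 RPKM in KI (1 of 2 tested higher, 0 lower). Of these, *Ttr* was at 51.3 RPKM in KI replicate 1 and at 8.13 to 13.8 RPKM in the other libraries. *Kl* was at 4.87 and 5.14 RPKM in WT and 7.05 and 6.72 RPKM in KI. Below the tested level, *Aqp1* was at 0.0851 and 0.129 RPKM in WT and 0.212 and 0.306 RPKM in KI, and *Folr1* was at 0.262 to 0.575 RPKM with overlapping groups. KI replicate 1 was also the library farthest from WT in 6 of the 7 higher channel genes, *Cacng4* being the exception, and it had the lowest dentate granule marker sum. CA3 markers summed to 48.5 and 49.2 RPKM in WT and 51.7 and 54.2 RPKM in KI (1 of 4 higher, *Bok*, and 1 lower, *Cdh24*), while their mean shift from WT on the log2(RPKM + 1) scale was 0.09 in KI replicate 1 and -0.01 in KI replicate 2. Oligodendrocyte precursor markers summed to 23.0 and 22.9 RPKM in WT and 22.5 and 22.0 RPKM in KI (1 of 3 higher, 1 lower). The sums of the CA1, oligodendrocyte, astrocyte, microglia and endothelium markers overlapped between the groups. Their markers were higher in 1 of 4, 0 of 5, 2 of 5, 2 of 5 and 3 of 5, and lower in 0, 0, 1, 1 and 1. The CA1 sum was 142 and 145 RPKM in WT and 128 and 159 RPKM in KI, with the KI libraries on either side of WT. None of the markers found was at 0 in all libraries. The part that these markers have in the channel gene differences was not tested.

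**Figure D4:**
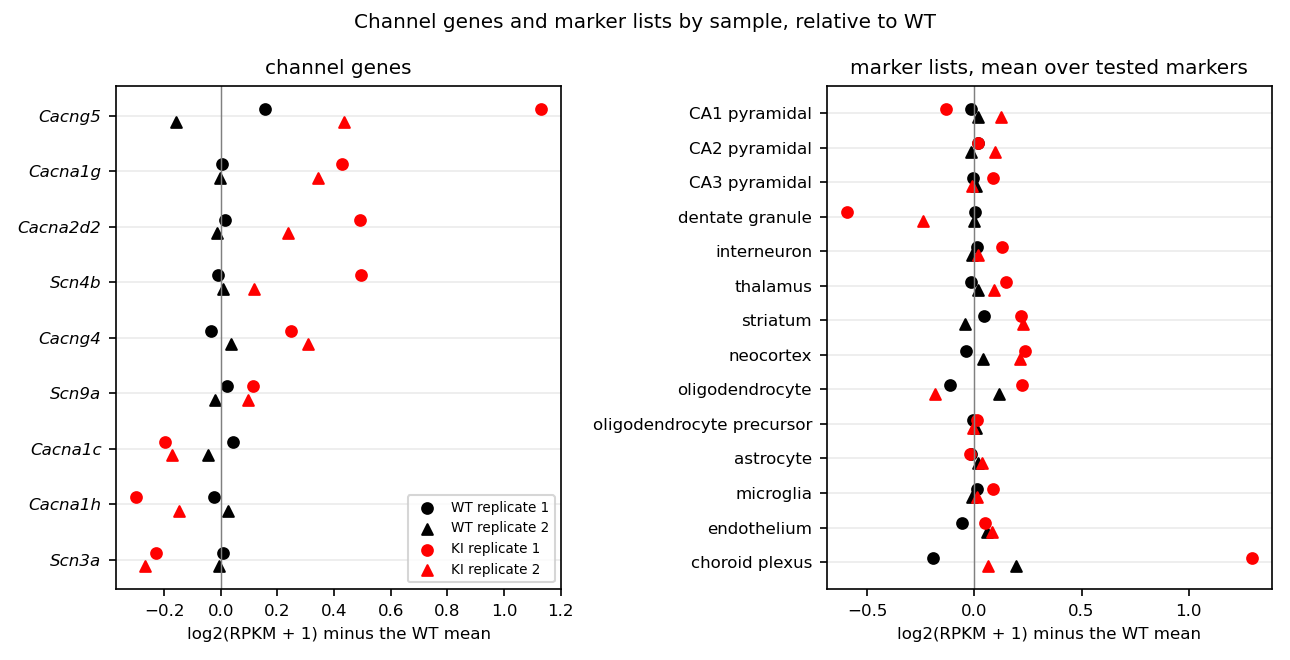
Difference of each library from the WT mean, in log2(RPKM + 1), for 9 tested channel genes with an unadjusted limma p under 0.05 or non-overlapping groups at 1.2-fold (left) and for the mean over the tested markers of each cell type or region (right). WT is black and KI red, with circles for replicate 1 and triangles for replicate 2. In KI replicate 1, *Cacng5* lies farthest from WT among these channel genes (1.13). *Scn4b* (0.50), *Cacna2d2* (0.49) and *Cacna1g* (0.43) follow. The choroid plexus mean, over 2 tested markers, is 1.29 in that library, and the dentate granule mean is -0.60.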

How the data were processed

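RNA was extracted from whole hippocampus with TRIzol, and poly(A) libraries were made with a TruSeq kit and sequenced as paired reads on an Illumina HiSeq instrument. The authors mapped the reads to mm10 with GSNAP, retained read pairs with a unique and proper alignment, and deposited one table of RPKM values per gene and sample, with Ensembl release 74 genes per the file headers. CASAVA is named in the submitters' processing notes, and the strand setting of the counting is not given in the sources used here. A gene missing from a sample's table was taken as 0.

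From these RPKM values, log2(RPKM + 1) was tested between KI and WT with limma 3.58.1 (R 4.3.3, empirical Bayes with a mean-variance trend), for the 18436 genes that reached 0.5 RPKM in no fewer than 2 libraries, and p-values were adjusted by Benjamini-Hochberg over all of them. A gene was called at 1.2-fold or more if its adjusted p was below 0.1. A count model was not used, since the values are not counts. The script was tested on simulated data with fold changes of 1.5 and larger. Its recovery of changes at the 1.2-fold threshold was not tested. Approximate reads were worked out from the steps between low values, using GENCODE M21 exon lengths, and counts of reads in the text carry this approximation.

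The channel genes and the lists of partners and markers were chosen with earlier results of these data known. Channel genes were named where the unadjusted limma p was under 0.05, where the groups did not overlap and the ratio of mean RPKM was at least 1.2 either way, or where the gene was among the top 2 of its family by mean RPKM. Other members were named after their values were seen. Results of 2 members are not reported here, although the counts and family sums include them. Partners were named by the first 2 of these criteria, except *Ank3*, *Rims2*, *Rem2*, *Gem* and *Rrad*, which were chosen after their values were seen. Promoter windows are from RefSeq (GRCm38.p6). The alternatives tried were another pseudocount, other filters, a replicate block, no trend, quantile normalization, median centring, a fold of 1.5, and leaving out each library.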

Additional observations from a re-analysis of the deposited data

How the results depend on the processing

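The number of channel genes past the adjusted threshold was 0 under each alternative tried, and their smallest adjusted p from limma ran from 0.307 to 0.655. Over all genes, 20 passed with no mean-variance trend and 0 under the others. In each setting that kept all libraries, 4 channel genes had a limma p under 0.05 and were higher in KI. The lower ones were 3 in the main fit, 1 with the replicate block and 1 with no trend. With quantile normalization they were 4, and with median centring 4. Both the higher and the lower counts were smaller in some fits that left out a library, which keep only 1 library in a group. The within-group deviations of the samples numbered 1 had a correlation of r = -0.025 over genes. The labels give only the replicate number, and this correlation does not show whether same-numbered samples shared a batch. With the replicate block, 4 channel genes were higher in KI. The median log2 fold change of the channel genes was 0.0157 with no filter, -0.0196 with a mean of at least 1 RPKM, -0.0362 with quantile normalization and -0.0242 with median centring, and ran from -0.0242 to -0.0075 as each library was left out. Genes near no difference changed sign: *Cacnb1* was at -0.0045 with median centring and ran from -0.0083 to 0.0263 as libraries were left out, *Cacnb3* from -0.0204 (-0.0159 without WT replicate 1) to 0.0815, and *Cacna1a* from -0.0812 to 0.139. *Cacnb1* was at -0.0059 without WT replicate 1. The cause of these differences was not tested. With 2 libraries a group and 8820000 to 14940000 mapped reads, small changes and changes of genes under 1 RPKM are poorly resolved.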
